A study of Mus musculus with 8 samples.

Results

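Hepatoma cells copying their DNA were described in tumours grown from Hepa1-6, a mouse liver cancer cell line, whose messages were read from their 3′ ends in single cells caught in droplets. The cells were chosen by 2 gates on the deposited values. A hepatoma cell had a mean of at least 1 over Krt8 (a keratin of epithelial cells), Afp and Alb (fetal and adult serum proteins of the liver), and a mean below 0.5 over the immune genes Cd3g, Trbc2, Tyrobp and Fcer1g. An S phase cell was a hepatoma cell in the top 15% of its set by the mean of 7 genes (Rrm2, Cdc6, Uhrf1, Exo1, Ccne2, Hells and Clspn, the S score) and below the 85th percentile of the set by the mean of Ube2c, Cenpf, Ccnb1 and Plk1 (the G2M score). This gave 3354 S phase cells, which were 9.72% of 34499 hepatoma cells (exact binomial 95% interval 9.41% to 10.0%) and 6.27% of all 53528 cells. Intervals here and below cover counting error only.

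The tumours came from unedited (WT) or Soat1-edited Hepa1-6 cells, and the hosts of each kind were injected intraperitoneally with PBS or with an antibody against PD-1, a checkpoint receptor of T cells, which makes 4 groups. Soat1 encodes an enzyme that esterifies cholesterol, and the labels call the edit a knockout in the titles and a knockdown in the genotype field. All groups share the cell line, and the age and strain of the hosts and the number of animals per group are not given in the sources used here. The pooled table of 2000 genes divides into 6 sets, since each cell name ends in a number from 1 to 6. The labels list 8 entries for the 4 groups, as cDNA and oligo libraries. Nothing ties the sets to the 4 groups, so neither the edit nor the antibody could be compared, Soat1 was not analysed here, and the sets are treated as unassigned samples. Whether different sets come from different tumours is not known. Whether libraries share cell barcodes could not be counted, because the names hold running numbers and no barcode sequence.

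During S phase a cell duplicates its genome once. The MCM helicase is loaded on replication origins in G1 and opened in S phase, the clamp PCNA holds the polymerases on the template, and ribonucleotide reductase and thymidylate enzymes supply the building blocks. Many of these genes are switched on together by E2F transcription factors when cyclin D and cyclin E kinases inactivate the retinoblastoma family, while genes for mitosis are switched on later through a promoter element called the CHR. Adult hepatocytes rarely divide, whereas hepatoma cells cycle and keep a part of the liver's gene programme.

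Promoter sequences of 3 scored genes and 4 replication genes are shown first. They were chosen for an E2F-type match before the start site, and not all genes of these groups hold one: Rrm2, Pcna and Rrm1 have windows with 0 matches, and Mcm7 has 1 window with a match and 1 without. Each stretch below lies before the transcription start site in the RefSeq table of mouse build GRCm38.p6, reads 5′ to 3′ on the gene's strand, and has each E2F-type match in capitals. The letters searched on both strands were TTTGGCGC, TTTCCCGC, TTTCGCGC and TTTGCCGC, which can overlap each other, as they do in Mcm5. The matches lie at most 185 bases before the start site, and nearest to it in Dtl and Rfc3.
Cdc6, chr11:98907953-98908080, plus strand: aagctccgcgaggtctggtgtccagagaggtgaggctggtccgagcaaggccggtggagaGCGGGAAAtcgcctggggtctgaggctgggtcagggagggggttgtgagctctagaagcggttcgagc
Uhrf1, chr17:56304068-56304195, plus strand: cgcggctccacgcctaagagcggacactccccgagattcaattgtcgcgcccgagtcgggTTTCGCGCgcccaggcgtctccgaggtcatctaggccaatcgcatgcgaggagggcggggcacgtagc
Hells, chr19:38930868-38930989, plus strand: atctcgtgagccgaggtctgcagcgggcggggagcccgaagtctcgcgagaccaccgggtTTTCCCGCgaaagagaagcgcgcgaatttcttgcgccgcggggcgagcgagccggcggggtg
Mcm5, chr8:75109296-75109427, plus strand: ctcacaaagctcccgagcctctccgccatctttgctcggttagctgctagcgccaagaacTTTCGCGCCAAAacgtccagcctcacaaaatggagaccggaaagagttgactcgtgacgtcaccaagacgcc
Mcm7, chr5:138171981-138172108, minus strand: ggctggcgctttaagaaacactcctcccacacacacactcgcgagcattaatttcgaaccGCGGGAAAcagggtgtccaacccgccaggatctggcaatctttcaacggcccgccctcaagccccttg
Rfc3, chr5:151651209-151651278, minus strand: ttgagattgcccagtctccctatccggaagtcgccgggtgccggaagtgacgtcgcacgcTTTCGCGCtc
Dtl, chr1:191575545-191575612, minus strand: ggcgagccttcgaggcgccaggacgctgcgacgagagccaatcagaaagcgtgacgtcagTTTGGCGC

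In Cdc6 and Mcm7 the capitals are TTTCCCGC on the opposite strand. Of the 7 scored genes, 5 had a window of 300 bases around the start site, and 4 of these held an E2F-type match. Of the 36 genes in 3 lists for DNA synthesis that were not scored, 26 had a window, and 10 of them, or 38.5% (20.2% to 59.4%), held a match. The share was 6 of 9 for origin licensing and fork genes, 0 of 5 for nucleotide supply and 4 of 12 for repair and checkpoint genes. A match was found in 2.61% of all 27025 genes with a window. In the list of G2 and M phase genes 3 of 59, or 5.08%, held one. The CHR letters TTTGAA gave the opposite order: 67.8% of the G2 and M phase genes held them, against 23.1% of the 26 DNA synthesis genes and 20.2% of all genes. CCAAT was found in 61.5% of the DNA synthesis genes, 76.3% of the G2 and M phase genes and 41.1% of all genes. Fewer than 80% of the DNA synthesis genes had a window, so the check is void for these lists as a whole and the shares describe the matched genes alone. Exo1, Ccne2, Gmnn, Gins1, Gins2, Dscc1, Atad2, Esco2, Ccna2 and Stmn1 were among those with no window. A match of letters is not a measured binding site.

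The number of S phase cells was 689, 514, 857, 269, 651 and 374 in sets 1 to 6, or 9.46%, 10.2%, 10.3%, 7.13%, 11.3% and 8.55% of the hepatoma cells of each set. Since the top 15% by S score is fixed, this share varies only with how many of those cells also lay above the G2M cut. That part was 37.0%, 31.8%, 31.2%, 52.5%, 24.6% and 43.0% of the S-high cells in sets 1 to 6, and over all sets 1823 cells, or 35.2% of 5177, lay above both cuts. As many cells as there were S phase cells, 3354, lay above the G2M cut alone, and 25968 lay outside both cuts and are the comparison below. The equal counts follow from the gates, since both cuts take the top 15% of the same cells.

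**Figure D1:**
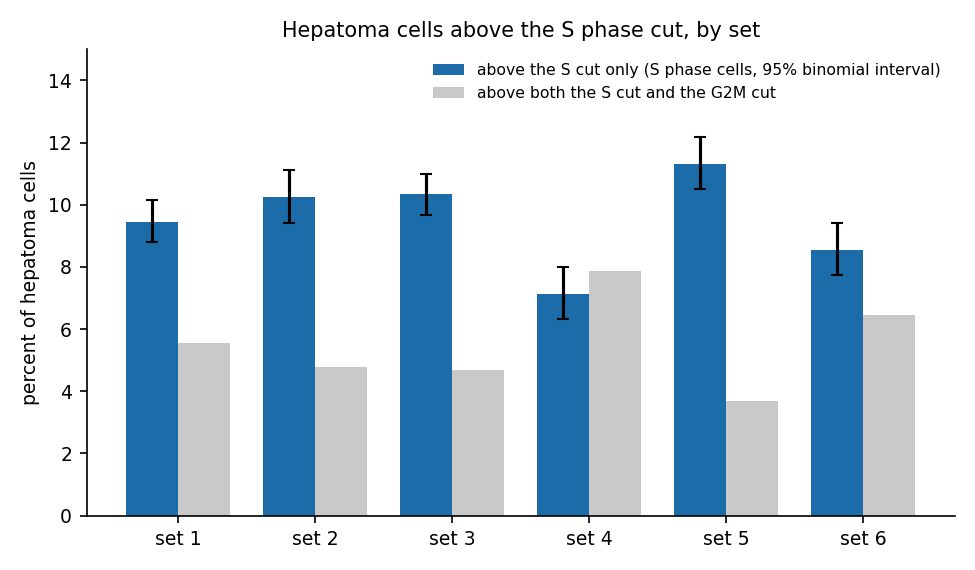
Percent of hepatoma cells above the S cut alone (blue bars, with exact binomial 95% intervals) and above both the S and the G2M cut (grey bars) in sets 1 to 6. Set 4 has the lowest blue bar, 7.13%, and it is the set whose grey bar is higher than its blue bar.

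Set 4 stood apart. Its S score cut was 0.23 on the natural log scale, against 0.34 to 0.40 in the other 5 sets, and the median S score of its S phase cells was 0.32 against 0.57 to 0.66. Within 0.05 above the cut lay 861 of the S-high hepatoma cells of all sets, 135 of them in set 4, and within 0.05 below it lay 1139 cells. Just inside and just outside the cut, the scores of set 4 were 0.232 and 0.231. The cut is a percentile of many cells, so near scores on both sides follow from it. They cannot tell whether a border between types exists.

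The 7 scored genes chose the cells, so their values are a description. In set 1, where whole UMIs could be recovered, Rrm2 (a subunit of ribonucleotide reductase) was at 232 CPM (its UMIs, the molecules counted, scaled to a common total per class) in S phase cells and 18.2 CPM outside both cuts. Cdc6 (an origin licensing factor) was at 92.1 and 4.99 CPM, and Clspn (a checkpoint adaptor at forks) at 60.5 and 3.30 CPM. S phase cells of set 1 had UMIs of a median of 5 of the 7 genes, cells above the G2M cut alone of 3, and cells outside both cuts of 1. With each cell thinned to 5000 UMIs these medians were 3, 1 and 0.

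Depth differed between the classes. S phase cells of set 1 had a median of 19755 UMIs (95% interval 17243 to 21285), cells above the G2M cut alone 21702, cells above both cuts 29346, and cells outside both cuts 13715. Results below were also computed after thinning each cell to 5000 UMIs, with 1100 shallower hepatoma cells left out. The thinned cells were gated anew, which gave 766 S phase cells and 4450 cells outside both cuts. Of these S phase cells, 59.9% were also S phase cells without thinning. Thinned values therefore mix a change of depth with a change of cells, and the part of depth alone was not measured. Scrublet called 7 of the 689 S phase cells of set 1 doublets, or 1.02%, against 0.890% of the cells outside both cuts.

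The DNA synthesis genes that were not scored were higher in S phase cells. Of the 36 such genes, 26 had a mean value more than 0.1 natural log units higher in S phase cells than in cells outside both cuts in every one of the 6 sets, against 77 of 1982 genes outside the gates, or 3.88%. Without set 4 the count was 34 of 36, against 9.18% of all genes. The median difference of the list was 0.37, 0.40, 0.38, 0.15, 0.40 and 0.32 in sets 1 to 6, beside -0.0010 to -0.00012 over all genes. In the counts of set 1, 35 of the 36 were at least 1.5-fold higher, against 12.8% of all genes, with a median log2 ratio of 2.16 against -0.05. After thinning it was again 35 of 36, against 16.8% of all genes, with a median log2 ratio of 1.86. These genes were measured in the same cells as the score, and no p-value is given, because many cells from 1 sample share that sample and do not replicate it. The sets may also have been processed together, so their agreement is not shown to be independent. The table held 13 of 51, 6 of 21 and 17 of 68 genes of the 3 lists, and how its 2000 genes were chosen is not given. If they were kept for varying between cells, the high counts would follow in part from that choice. The 1982 genes also include markers of other cell types, which were low in hepatoma cells and could rarely differ by 0.1.

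Among the genes of origin licensing and the replication fork, Pcna, the sliding clamp, had mean values of 1.49, 1.47, 1.49, 0.96, 1.49 and 1.42 in the S phase cells of sets 1 to 6. Outside both cuts Pcna was at 0.55, 0.55, 0.58, 0.55, 0.59 and 0.53, so the 2 ranges did not overlap and set 4 was low in the S phase cells alone. In set 1 Pcna was at 416 CPM against 99.0 CPM, a ratio of 4.20 (Poisson 95% interval 4.08 to 4.33), and of 3.17 after thinning. Mcm3, a subunit of the MCM helicase, had means of 1.11, 1.05, 1.12, 0.63, 1.12 and 0.99 in S phase cells and of 0.28 to 0.33 outside. Its ratio in set 1 was 4.73, that of Mcm5 was 6.03 and that of Mcm7 was 3.54. Gmnn, the inhibitor that blocks loading of new helicases once S phase has begun, had a ratio of 4.35. Rfc3, a subunit of the clamp loader, stood at 2.67, Lig1, the ligase that joins the pieces of the lagging strand, at 4.96, and Dtl, which marks licensing factors for destruction at the clamp, at 6.69, or 4.18 after thinning. Of the 13 measured genes of this list 10 were above 0.1 in all 6 sets, against 3.88% of all genes, and 13 of 13 without set 4, against 9.18%. The other 3, Cdc45, Gins2 and Dscc1, had differences of 0.10, 0.06 and 0.09 in set 4.

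**Figure D2:**
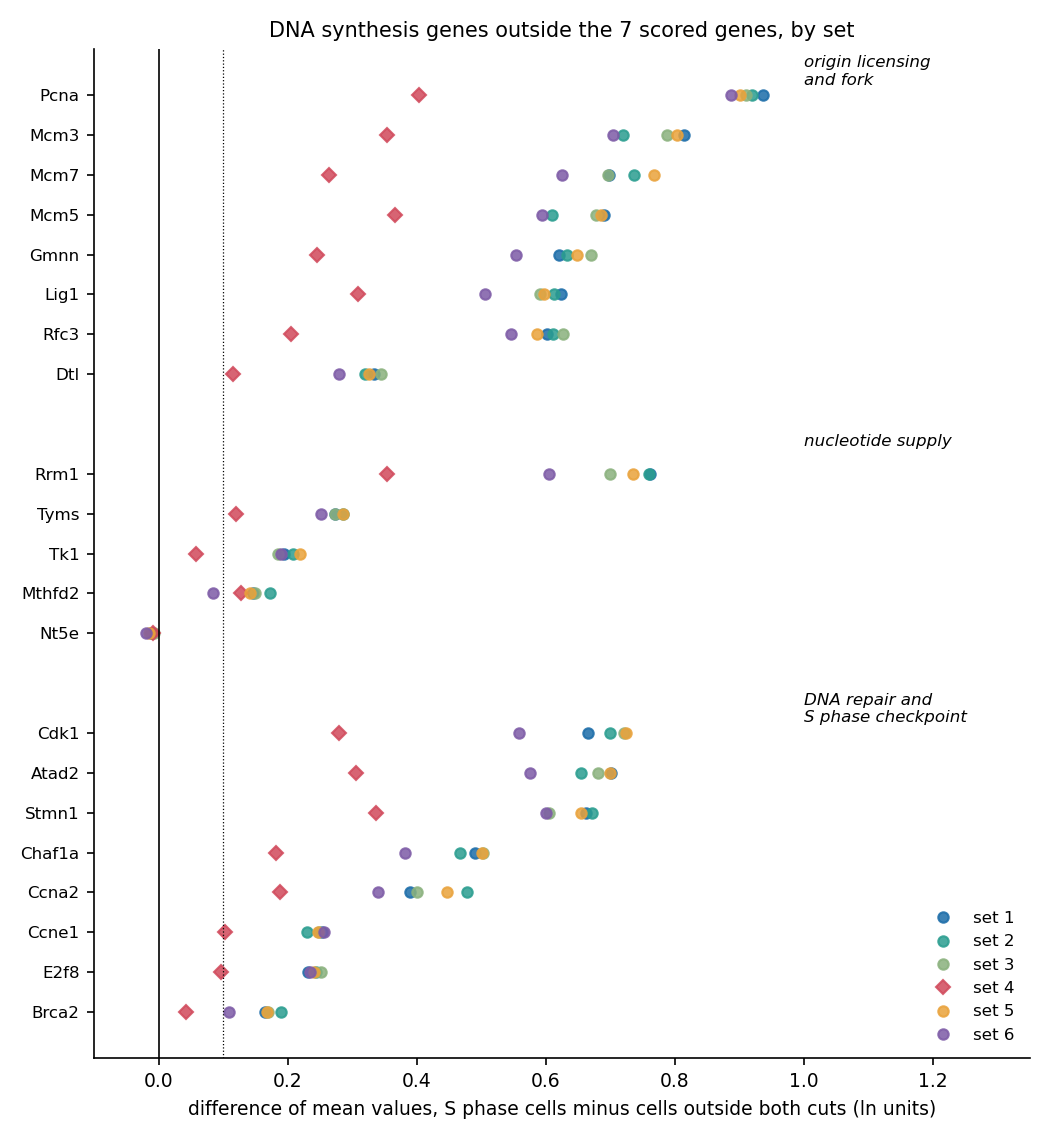
Difference of mean deposited values between S phase cells and cells outside both cuts (natural log units) for 21 of the 36 DNA synthesis genes that were not scored, 1 point per set, with set 4 as red diamonds and the dotted line at 0.1. Points of sets 1, 2, 3, 5 and 6 lie close together for each gene, set 4 lies nearer to 0 (except in Mthfd2, where set 6 does), and Nt5e is the gene below 0 in all 6 sets.

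Of 6 genes for nucleotide supply, 3 were above 0.1 in all 6 sets, against 3.88% of all genes, and 4 without set 4, against 9.18%. Rrm1, the large subunit of ribonucleotide reductase, had means of 1.08, 1.10, 1.06, 0.66, 1.11 and 0.93 in S phase cells and of 0.30 to 0.37 outside. Its ratio in set 1 was 4.32 (4.15 to 4.50). Tyms, which makes thymidylate, had a ratio of 4.34, and Tk1, the salvage kinase for thymidine, of 4.92. Mthfd2, a mitochondrial folate enzyme, stood at 2.54, with a difference of 0.08 in set 6, its lowest. Nt5e, an enzyme on the cell surface that releases adenosine, was lower, at 2.60 against 5.23 CPM, and after thinning at 5.48 against 4.99 CPM, so its direction in set 1 was not kept after thinning. Dtymk, the kinase that makes the diphosphate of thymidylate and that was in no list, had the largest median difference among genes outside the lists, 0.59, with 286 against 123 CPM in set 1.

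Of 17 genes for DNA repair, the S phase checkpoint and the cyclins of S phase, 13 were above 0.1 in all 6 sets, against 3.88% of all genes. Without set 4 it was 17 of 17, against 9.18%. The list also holds Stmn1 and Tuba1b, of the microtubules, and Cenph and Kntc1, of the kinetochore, and of these Kntc1 was below 0.1 in set 4. Atad2, a chromatin reader that accompanies replication, had means of 0.89, 0.86, 0.88, 0.49, 0.92 and 0.75 in S phase cells and of 0.18 to 0.22 outside, which do not overlap. Its ratio in set 1 was 6.34 (6.03 to 6.67). E2f8, a repressor of the E2F family, had a ratio of 17.7 (15.1 to 20.7) from low levels of 35.8 and 2.03 CPM, and of 8.76 after thinning. Chaf1a, a chaperone that places histones on new DNA, had a ratio of 5.18, and Brca2, of recombination repair, of 4.19. In set 4, E2f8 and Brca2 were below 0.1 too, with differences of 0.096 and 0.043. Ccne1, a cyclin of the step from G1 to S, had a ratio of 3.97 and Ccna2, the cyclin of S and G2, of 4.30.

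The comparison with the 3354 cells above the G2M cut alone divided these genes. S phase cells were gated above the S cut and below the G2M cut, and G2M cells the other way round. Genes that follow either score therefore differ in that direction through the choice of cells, so these counts are a description. Compared with those cells, 9 of the 36 DNA synthesis genes were higher by more than 0.1 in all 6 sets, against 14 of 1982 genes or 0.706%, and 2 of them were lower, against 42 genes or 2.12%. Among the 9 were Mcm3, Mcm5, Mcm7, Lig1, Pcna, Rfc3, Atad2 and Chaf1a, and the 2 were Cdk1 and Ccna2. Ccne1 in set 1 was at 55.5 CPM in S phase cells, 13.7 CPM in G2M cells and 14.0 CPM outside both cuts, so G2M cells and cells outside did not differ beyond counting error (ratio 0.980, 0.856 to 1.12). Rrm1 was close in both cycling classes, at 225 and 181 CPM. Cdk1, the kinase of mitotic entry, was at 211 CPM in S phase cells and 424 CPM in G2M cells, and Ccna2 at 93.5 and 208 CPM.

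The G2 and M phase genes that the gate did not use were also above the level outside both cuts, and below that of G2M cells. The gate on the G2M score itself favours the lower level than in G2M cells. Their median difference from cells outside was 0.19 (range over sets 0.07 to 0.21), and 22 of 71 were above 0.1 in all 6 sets, against 3.88% of all genes, or 56 of 71 without set 4, against 9.18%. Compared with G2M cells 35 of 71 were lower by more than 0.1 in all 6 sets, against 2.12% of all genes, and 0 were higher, against 0.706%. Top2a, the topoisomerase that untangles replicated DNA, had means of 1.25, 1.32, 1.30, 0.64, 1.40 and 1.18 in S phase cells, of 0.30 to 0.35 outside and of 1.73, 1.71, 1.51, 0.80, 1.79 and 1.29 in G2M cells. In each set Top2a in S phase cells lay between the other 2 classes. Hmgb2, a chromatin protein of dividing cells, was at 847, 251 and 1367 CPM in S phase, outside and G2M cells of set 1. Birc5, the survivin subunit of the chromosomal passenger complex, was at 183, 49.6 and 361 CPM, Mki67, the proliferation antigen, at 150, 36.5 and 328 CPM, and Racgap1, which acts in cell division, at 132, 36.2 and 292 CPM.

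**Figure D3:**
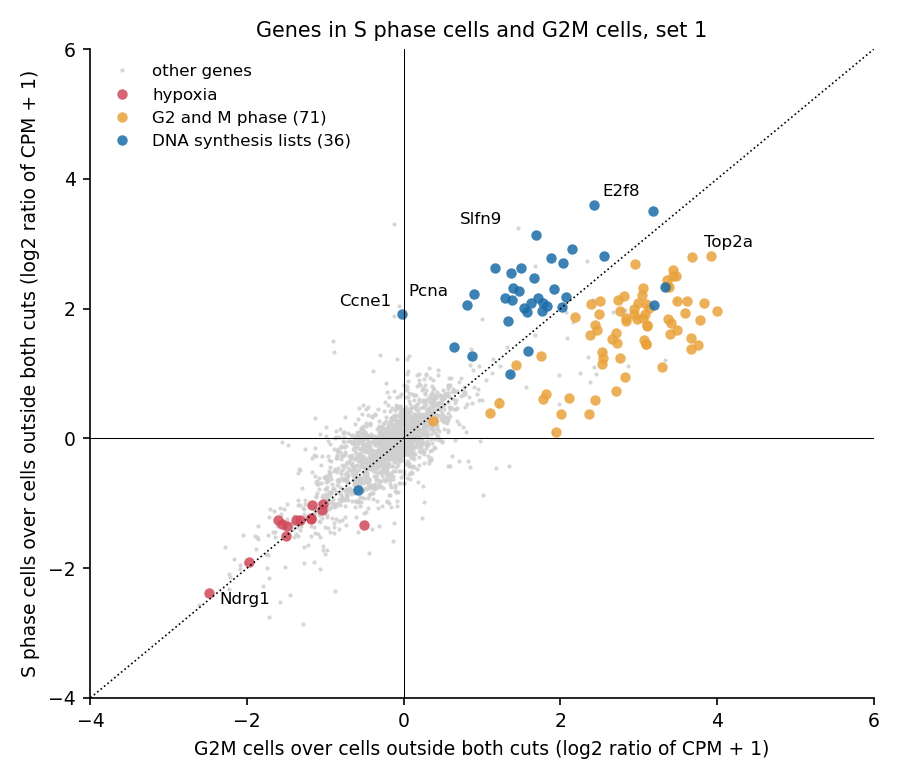
Each point is 1 gene outside the gates in set 1, with the log2 ratio of CPM plus 1 over cells outside both cuts in G2M cells (horizontal axis) and in S phase cells (vertical axis), and the dotted line marks equal ratios. Most DNA synthesis genes lie above the line, with Cdk1 and Ccna2 among those below it. The G2 and M phase genes lie below the line, and the hypoxia genes lie at negative values, Ndrg1 the lowest of them.

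By likeness to the S score, the 10 genes with the highest Pearson correlation over hepatoma cells (median over the 6 sets) were Top2a, Mcm3, Atad2, Slfn9, Mcm5, Pcna, Rrm1, Gmnn, Hmgb2 and Mcm7. The correlation was 0.53 for Top2a and 0.49 for Mcm7, and it shares the depth of each cell with the score. Slfn9, of the Schlafen family, whose near-identical neighbours can share reads, had means of 0.55, 0.56, 0.62, 0.31, 0.59 and 0.63 in S phase cells, 0.07 to 0.08 outside and 0.14 to 0.23 in G2M cells. In set 1 Slfn9 was at 98.2 CPM against 9.50 CPM outside, a ratio of 10.3 (9.56 to 11.2), and of 7.86 after thinning.

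Around the start of the cycle, 2 of 16 genes in the list of cell cycle inhibitors, p53 targets and G1 cyclins were past 0.1 in all 6 sets, 1 in each direction, against 3.88% of all genes higher and 3.08% lower. These counts are near the shares over all genes. Ccnd1, cyclin D1, had means of 1.54, 1.60, 1.64, 1.16, 1.66 and 1.53 in S phase cells and of 1.04, 1.04, 1.03, 0.87, 1.05 and 0.93 outside. In set 1 Ccnd1 was at 547 against 334 CPM, a ratio of 1.64, with 430 CPM in G2M cells. Cdkn1a, the kinase inhibitor p21, had means of 0.88, 0.93, 0.90, 1.00, 0.95 and 0.96 in S phase cells and of 1.32 to 1.37 outside, with no overlap. Its ratio in set 1 was 0.447 (0.432 to 0.462), and 0.553 after thinning. In G2M cells of set 1 Cdkn1a was at 157 CPM, against 209 CPM in S phase cells, and over the sets S phase cells minus G2M cells gave -0.03 to 0.12.

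Of 9 histone genes measured, 1 was above 0.1 in all 6 sets, against 3.88% of all genes, and 2 were without set 4, against 9.18%. H2afz, the variant H2A.Z, was at 978 against 490 CPM in set 1, and at 1256 CPM in G2M cells. H2afx, the variant that marks DNA breaks, was at 28.4 against 12.7 CPM, with differences of 0.07 to 0.12 over the sets. Hist1h1c and Hist1h2bc were lower in all 6 sets, with differences of -0.19 to -0.07 and -0.17 to -0.10, and ratios of 0.504 and 0.418 in set 1, or 0.645 and 0.634 after thinning. Both lie in clusters of near-identical genes whose reads can be split between copies. The table held 9 of the 63 listed histone genes, so these values do not describe histone messages as a whole.

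Hypoxia genes were lower in S phase cells. The table held 14 of the 29 listed genes. Of these 14 measured genes 12 were more than 0.1 lower in all 6 sets, against 61 of 1982 genes or 3.08%. Without set 4 it was again 12, against 64 of 1982 genes. The list's median difference was -0.34, -0.32, -0.29, -0.22, -0.36 and -0.24 in sets 1 to 6. In set 1, 14 of 14 were at least 1.5-fold lower, against 18% of all genes, and 14 of 14 after thinning, against 15.4%. Ndrg1, a stress gene induced by low oxygen, had means of 0.76, 0.79, 0.74, 0.89, 0.75 and 0.77 in S phase cells and of 1.48 to 1.57 outside, which do not overlap. In set 1 Ndrg1 was at 149 against 780 CPM, a ratio of 0.190 (0.183 to 0.198), and of 0.385 after thinning. Bnip3, which directs mitochondria to autophagy, had a ratio of 0.266, or 0.419 after thinning, and Vegfa, the growth factor of vessels, of 0.415. Slc2a1, the glucose transporter, stood at 0.388, Ero1l, an oxidase of the endoplasmic reticulum, at 0.396 and Pgk1, an enzyme of glycolysis, at 0.490. Adm and Car9, the other 2 of the 14, were at low levels of 0.453 and 4.98 CPM in S phase cells, with differences of -0.04 to 0.00 and -0.06 to -0.03. In G2M cells Ndrg1 was at 139 CPM and Bnip3 at 166 CPM, against 149 and 175 CPM in S phase cells. The list's median difference between S phase and G2M cells was -0.04 to 0.03 over the sets.

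Few S phase cells were hypoxia-high, defined as the top 15% of a set's hepatoma cells by the mean of the 14 genes. The share was 1.31%, 0.584%, 0.933%, 5.58%, 0.614% and 0.267% of S phase cells in sets 1 to 6, and 40 of 3354 or 1.19% (0.853% to 1.62%) over all, against 19.6% of cells outside both cuts. It was 1.22% of G2M cells. Without set 4, the highest, the share of S phase cells was 0.810%. With gates and score on thinned cells of set 1 it was 4.57% (3.20% to 6.30%), above the 1.31% of the same set without thinning and below the 15% that holds over all hepatoma cells. Within each of 4 equal classes of set 1 hepatoma cells by UMI total, S phase cells were 0.575% to 1.71% of the hypoxia-high cells and 9.11% to 14.9% of the others.

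**Figure D4:**
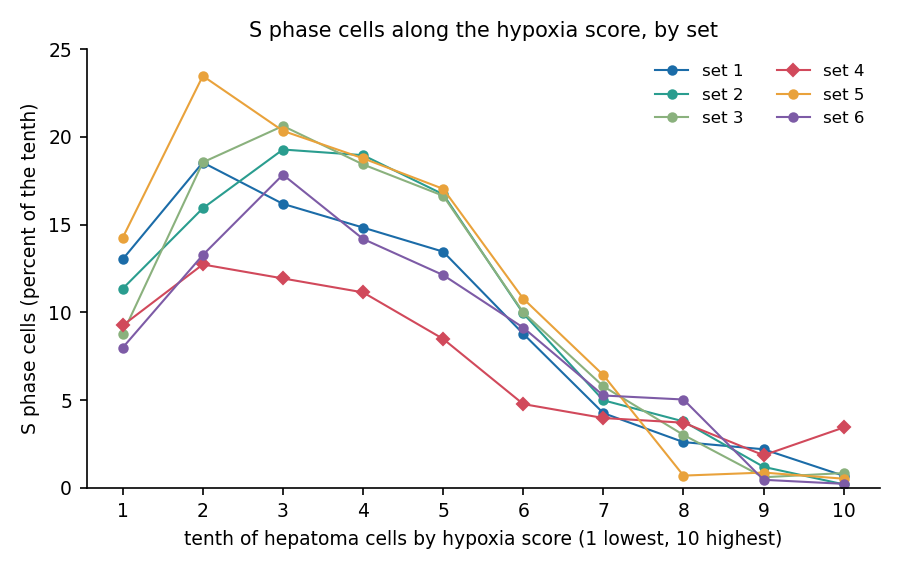
S phase cells as a percent of hepatoma cells (vertical axis) in each of 10 equal classes ranked by the mean of the 14 hypoxia genes (horizontal axis, class 1 lowest), 1 line per set and set 4 as red diamonds. The share is highest in class 2 or 3, at 12.7% to 23.5%, and at most 3.44% in class 10, where set 4 is highest.

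Among the liver's secreted proteins, 5 of 42 genes were lower by more than 0.1 in all 6 sets, with and without set 4, against 3.08% of all genes: Ahsg, Fga, Fgg, Kng1 and Kng2. Ahsg, fetuin A, had a difference of -0.32 (-0.36 to -0.25 over the sets) and was at 221 against 633 CPM in set 1, a ratio of 0.349, or 0.569 after thinning. Fga and Fgg, 2 chains of fibrinogen, had ratios of 0.389 and 0.468 in set 1, which were 0.644 and 0.688 after thinning, and Kng1, a kininogen, had 0.385 and 0.673. Fgb, the other fibrinogen chain, had a ratio of 0.585, or 0.687 after thinning, and differences from -0.27 to -0.08. Rbp4, the retinol carrier, had a ratio of 0.648 and a difference of -0.02 in set 6, its smallest. The list's median difference was -0.03 to -0.002, while in the counts of set 1 24 of 42 were at least 1.5-fold lower, against 18% of all genes, with a median log2 ratio of -0.75. After thinning 9 of 42 were, against 15.4% of all genes, with a median log2 ratio of -0.27. The size for this list thus differs with the scale and with thinning, which changed the depth and the cells together. In S phase cells 7.40% to 10.8% were in the top 15% of their set by this list's mean, against 15.9% to 17.6% of cells outside both cuts.

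Genes outside the lists followed both directions. Among those with the lowest negative differences were Igfbp3 and Igfbp1 (binding proteins of insulin-like growth factors) and Cited2 (a transcription regulator induced by hypoxia), with medians over the sets of -0.49, -0.48 and -0.46. Igfbp1, an abundant message, was at 2347 against 5481 CPM. The metallothioneins Mt1 and Mt2 had ratios of 0.502 and 0.545, and Hmox1, heme oxygenase 1, of 0.309, or 0.525 after thinning. Among those with positive differences, Pclaf, a partner of PCNA, had a ratio of 7.18 and Skp2, the ubiquitin ligase subunit that removes inhibitors of the cycle, of 3.70. Nolc1, a nucleolar protein, stood at 1.98 and Cacybp, a calcyclin-binding protein, at 1.77. Dbi, which binds acyl-CoA, and Aldh1a1, which makes retinoic acid, had ratios of 1.40 and 1.48, and their differences in set 4 were 0.05 and 0.08.

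**Figure D5:**
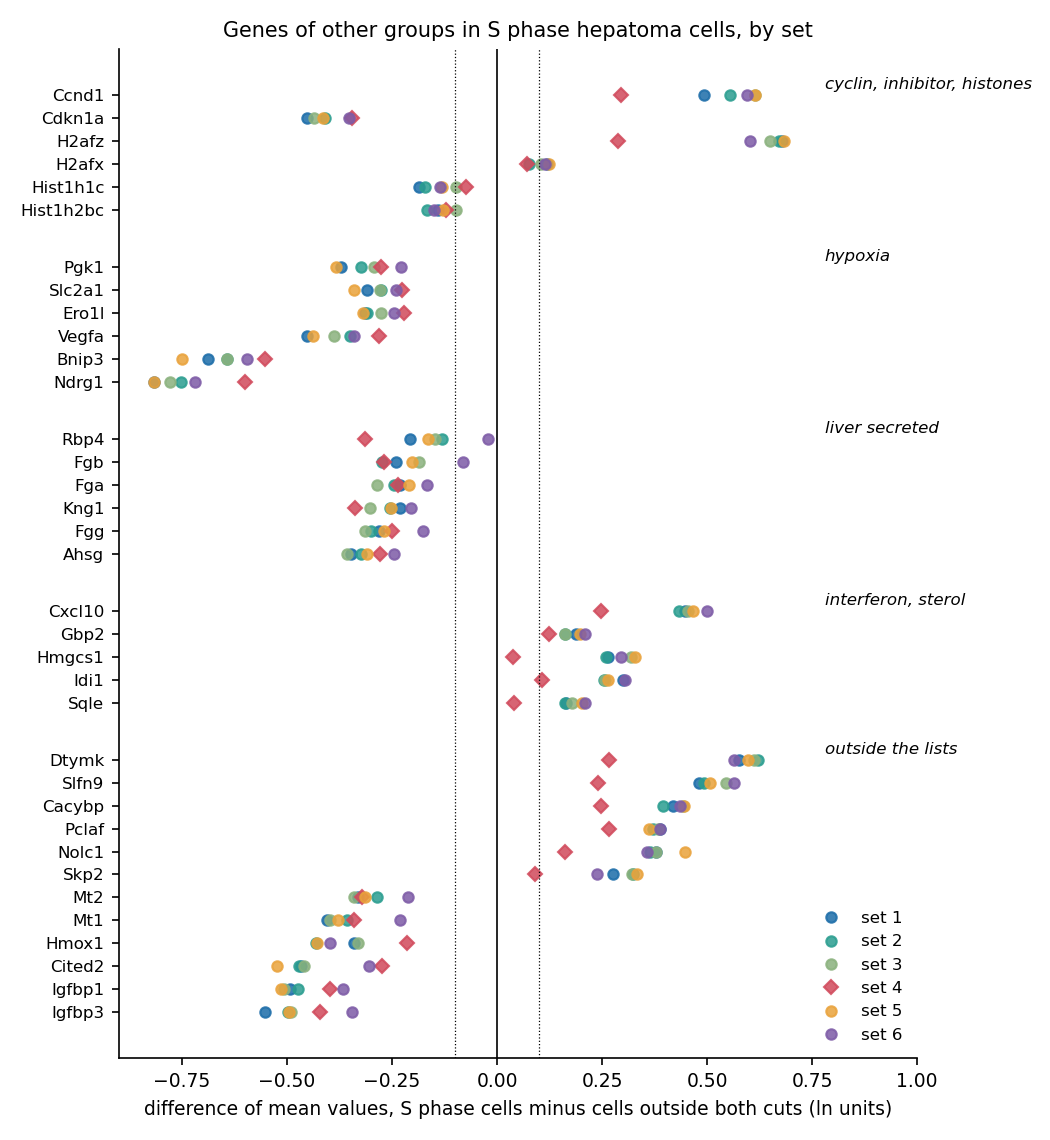
Difference of mean deposited values between S phase cells and cells outside both cuts (natural log units) for genes of other groups named in the text, 1 point per set, with set 4 as red diamonds and dotted lines at 0.1 and -0.1. The 6 hypoxia genes drawn lie below -0.1 in all 6 sets, with Ndrg1 the lowest, and Ccnd1, H2afz, Dtymk and Slfn9 lie above 0.1 in all 6 sets.

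Of 23 interferon response genes 2 were above 0.1 in all 6 sets, Cxcl10 and Gbp2, against 3.88% of all genes, and 6 were without set 4, against 9.18%. Cxcl10, a chemokine that draws T cells, had means of 0.94, 0.97, 1.04, 0.92, 1.06 and 1.13 in S phase cells and of 0.49, 0.54, 0.59, 0.67, 0.60 and 0.63 outside. In set 1 Cxcl10 was at 321 against 146 CPM, a ratio of 2.20 (2.13 to 2.27), and of 2.10 after thinning, with 264 CPM in G2M cells. Gbp2 was at 167 against 112 CPM. The median difference of this list was -0.002 to 0.02. Of 6 sterol synthesis genes 1, Idi1, was above 0.1 in all 6 sets, against 3.88% of all genes, and 5 were without set 4, against 9.18%. Idi1 had a ratio of 2.00 in set 1, Hmgcs1 of 1.55 and Sqle of 1.26. In the top 15% of cells by the mean of these 6 genes were 21.6% to 27.5% of S phase cells, 13.0% to 19.7% of G2M cells and 12.0% to 13.4% of cells outside both cuts.

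Markers of other cell types were measured in the same cells. In set 1 the 11 T cell markers summed to 45.7 CPM in S phase cells and 43.5 CPM outside both cuts, against 6797 CPM in the 7 T cells above the S cut. The T cell list holds the gate genes Cd3g and Trbc2, and the macrophage list holds Tyrobp and Fcer1g. The gates thus fix these sums in part. Without gate genes, 9 T cell markers summed to 26.0 and 26.0 CPM, and 10 macrophage and monocyte markers to 204 and 347 CPM. The 7 natural killer cell markers summed to 9.23 and 15.5 CPM, the 12 macrophage and monocyte markers to 210 and 354 CPM, and the 8 dendritic cell markers to 3.68 and 6.65 CPM. Fibroblast markers (8) summed to 79.1 and 191 CPM, endothelial markers (3) to 2.04 and 2.50 CPM, and B cell markers (6) to 9.17 and 42.4 CPM. Neutrophil markers (5) were the list with a higher sum in S phase cells by over 1.5-fold, at 69.3 against 28.8 CPM, and 14.8 CPM in G2M cells. S100a9 and S100a8 made up 46.3 and 18.3 CPM of it, the median S phase cell had 0 UMIs of the list, and the differences of both genes lay on both sides of 0 over the sets (-0.05 to 0.03 and -0.04 to 0.01). No marker of these lists had 0 UMIs in S phase cells, and their part in the results was not tested. The 10 hepatoma markers summed to 11139 and 14779 CPM. Without the gate genes Krt8, Afp and Alb, the other 7 summed to 3669 and 4303 CPM. The 5 genes given as marks of the class, Rrm2, Cdc6, Uhrf1, Ccne2 and Hells, are all in the score and so cannot check the label, while Pcna, the MCM genes and Gmnn above were not used in it, though they were measured in the same cells.

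T cells were gated in the same way. With a mean of Cd3g and Trbc2 of at least 1 and the hepatoma mean below 0.5, 1148 cells passed as T cells, 121 of them above the S cut alone, and set 1 held 7 of these. In T cells 22 of 1982 genes were more than 0.1 higher in all 6 sets, or 1.11%, and 2 were lower, or 0.101%. Of the 22, 17 were among the 77 of hepatoma cells, which is 77.3% of the T cell genes and 22.1% of the hepatoma genes. Of the 36 DNA synthesis genes 10 were among the 22. Without set 4 it was 14 of the 36, and the share over all genes was not counted there. With the hepatoma mean allowed up to 1, a gate chosen after seeing the data, 4196 T cells passed, 423 were above the S cut alone, and 30 of the 36 were higher, against 4.94% of all genes. Pcna differed by 0.60 to 0.92 over the sets in T cells. Slfn9 differed by -0.06 to 0.01 in T cells and by 0.24 to 0.56 in hepatoma cells. The hypoxia list's median difference in T cells was -0.02 to 0.02, and Cdkn1a, Ccnd1 and Cxcl10 had differences on both sides of 0 over the sets. The difference between the 2 cell types was not tested.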

How the data were processed

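Tumour cells were profiled with the DNBelab C4 single-cell 3′ system, per the labels' protocols. STAR 2.7.2b and the genome builds GRCh38 and mm10 are named in the submitters' processing notes. The deposited values are natural log values, which in set 1 equal the natural log of 1 plus UMIs per 10000 UMIs of the cell: whole UMIs were recovered there for 100% of 3386435 values above 0 (within 0.01), from totals of 1001 to 261833 UMIs per cell. The other 5 sets hold values below 0 that may come from scaling or integration, with totals found in 12.5% to 29.5% of cells, so their differences are differences of deposited values, their depth is unknown, and counts come from set 1 alone. All 53528 columns belong to no known sample.

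Means were compared per set, and a difference counted above 0.1 in every set. CPM ratios used a pseudocount of 1 for log2 values and 1.5-fold as threshold, with exact Poisson intervals. Thinning drew 5000 UMIs per cell. Doublets were called with Scrublet in scanpy 1.11.5, and 97 of 9370 cells of set 1 were called and kept. Other tools were Python 3.11.15, numpy 2.4.6, scipy 1.17.1 and matplotlib 3.10.9. The steps were tested on simulated data. Genes named are list members, the 25 highest and 15 lowest outside the lists by median difference of 1 sign in all sets, and the 10 most like the score, and a few named with their counts. Promoter windows run from 250 bases before to 50 after the start, per RefSeq, with 1421 of 2000 genes matched. Alternatives changed the gates, the comparison cells, the thresholds, the pseudocount and the depth. Some genes are not reported here. The members and lists were chosen with earlier results of these data known.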

Additional observations from a re-analysis of the deposited data

Results flagged for a closer look

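In 39 of 76 results tested, 1 set stood apart from the other 5, by a gap to its nearest neighbour that took most of the whole range (above the 95% critical value of Dixon for 6 values). Chance alone gives this in about 1 in 20 groups of values. Set 4 was the one apart in 38 of them, and the sets share the same gates, so these are not independent. Its S score cut was 0.23, the median S score of its S phase cells was 0.32, and 5.58% of them were hypoxia-high.

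The median differences in set 4, in natural log units of S phase cells minus cells outside both cuts, were 0.15 for the DNA synthesis lists together, 0.20 for origin licensing and fork genes, 0.12 for nucleotide supply, 0.15 for repair and checkpoint genes and 0.075 for G2 and M phase genes. Of replication genes, the difference in set 4 was 0.40 for Pcna, 0.35 for Mcm3, 0.37 for Mcm5, 0.26 for Mcm7, 0.25 for Gmnn, 0.20 for Rfc3, 0.31 for Lig1 and 0.12 for Dtl. Of nucleotide genes, it was 0.12 for Tyms and 0.058 for Tk1. Of the repair and checkpoint list, it was 0.31 for Atad2, 0.10 for Ccne1, 0.28 for Cdk1, 0.34 for Stmn1 and 0.096 for E2f8. Of genes of later phases and histones, it was 0.34 for Top2a, 0.28 for Mki67, 0.46 for Hmgb2, 0.30 for Birc5 and 0.29 for H2afz. Of other genes, it was 0.27 for Dtymk, 0.24 for Slfn9, 0.054 for Dbi, 0.25 for Cacybp, 0.27 for Pclaf, 0.16 for Nolc1, 0.25 for Cxcl10, 0.037 for Hmgcs1, 0.041 for Sqle and 0.11 for Idi1. Each of these differences was nearer to 0 than in the other 5 sets. The remaining result is Mt1, whose difference was -0.23 in set 6, nearer to 0 than in the other 5 sets.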

How the results depend on the processing

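The share of S phase cells among hepatoma cells was 7.11% with the top 10% by S score, 12.5% with the top 20%, 15.01% with no upper limit on the G2M score and 10.04% without set 4. Their hypoxia-high share was 0.571% with the top 10%, 2.21% with the top 20%, 4.57% in set 1 thinned to 5000 UMIs and 0.810% without set 4. The median log2 ratio of the DNA synthesis lists in set 1 was 2.10 with the top 20%, 1.51 against all other hepatoma cells, 1.80 with a pseudocount of 10 CPM and 1.86 after thinning. The median UMI total of S phase cells in set 1 was 16613 with the top 20% and 22424 with no upper limit on the G2M score, and the median difference of the G2 and M phase list was 0.27 with no such limit. With a threshold of 0.2 in place of 0.1, 13 of the 36 DNA synthesis genes were higher in all sets, and the share over all genes at 0.2 was not counted. With T cells gated at a hepatoma mean below 1, 30 of the 36 were higher by more than 0.1, against 4.94% of all genes. The cause of these changes was not tested. In the alternatives of the gates and the comparison cells, and without set 4, 0 of 65 named genes changed sign in their median difference over the sets. These alternatives share cells with the main gates, and many genes outside the lists were named for 1 sign in all 6 sets. An unchanged sign was therefore largely fixed in advance for them. After thinning, Nt5e in set 1 went from 2.60 against 5.23 CPM to 5.48 against 4.99 CPM. The liver list's count of genes at least 1.5-fold lower in set 1 went from 24 to 9 after thinning. Leaving out set 4, the wider T cell gate, the thinned liver list, the hypoxia list alternatives and promoters without the bases after the start site were added after seeing the data. In the last, 8 of 26 DNA synthesis genes, or 30.8%, held an E2F-type match, against 2.16% of all. No paired analysis was possible because no labelled groups were compared; S phase and other cells were compared within each set, so the 6 differences are already paired by set.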

Other observations

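Hepatoma cells in these tumours also differed by 2 sets of 3 genes each, Ppbp, Anxa1 and Tff2, and Slco1b2, Wif1 and Spp2. Among S phase cells 18.3% to 25.3% over the 6 sets were in the top 15% of their set by the first, against 12.6% to 13.8% of cells outside both cuts. For G2M cells this share was 14.9% to 19.4%. By the second it was 12.3% to 19.4% of S phase cells and 13.8% to 22.5% of G2M cells, against 13.9% to 15.2% outside. These ranges overlap. By the interferon response list the share of S phase cells was 14.5% to 22.9%, against 13.6% to 14.7% of cells outside both cuts. Set 4 was the lowest of the S phase cells and inside the range of the cells outside both cuts. G2M cells were at 16.0% to 20.4% by this list.

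Of 9 mitochondrial genes 0 were past 0.1 in all 6 sets and 3 without set 4, against 3.88% and 9.18% of all genes higher, and the list's median difference ran from -0.02 in set 4 to 0.13. Of 11 immediate early and heat shock genes 1 was above 0.1 in all 6 sets, against 3.88% of all genes, or 2 without set 4, against 9.18%. In all 6 sets it was Hsph1, a chaperone, with differences of 0.13 to 0.34.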
